A study of Arabidopsis thaliana with 11 samples.

Results

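The nuclear photosynthesis genes described here are 44 loci taken from a fixed list: 4 LHCA and 15 LHCB genes, which encode the light-harvesting proteins of photosystem I and photosystem II, 12 genes for photosystem I subunits (PSI), 9 for photosystem II subunits (PSII) and 4 for the small subunit of Rubisco (RBCS). All 44 were found among the 27588 genes of the deposited count table, and the rule that picks them uses no measured value. The RNA came from Arabidopsis seeds 8 days after cross, grown under 16 h of light and 8 h of dark, with endosperm and embryo dissected apart. In h1/H1 seeds the mother was a Col-0 h1 triple mutant, with T-DNA insertions in the linker histone genes H1.1 (allele h1.1-1), H1.2 (allele h1.2-2) and H1.3 (allele h1.3-1), and the pollen came from wild-type Ler. In H1/H1 seeds the mother was wild-type Col-0 and the pollen again wild-type Ler, so that the embryo and endosperm of both crosses carried functional paternal H1 genes. Of the 11 samples listed, 6 libraries could be tied to a cross and a tissue: libraries C, D and E are h1/H1 endosperm (n = 3), A and B are H1/H1 endosperm (n = 2), and F is an H1/H1 library whose column is named embryo (n = 1). The remaining 5 columns carry no group and were not used, so h1/H1 embryos are not analysed here. The only column named embryo is that of library F, whose markers, given below, go against that name. Its differences from endosperm are therefore not read as differences between tissues.

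Light-harvesting proteins bind chlorophyll and pass light energy to the photosystems, whose core proteins are in part encoded by the plastid and in part by the nucleus. The nuclear genes are transcribed together when a tissue greens, under transcription factors such as the GLK and HY5 proteins, and their products are imported into the chloroplast. Developing Arabidopsis seeds are green for part of their development, and both the embryo and the endosperm form photosynthetically active plastids. The small subunit of Rubisco belongs to the enzyme that fixes carbon dioxide, and its partner, the large subunit, is encoded by the plastid gene rbcL.

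The libraries held 13726579 to 20939575 counts, with TMM scaling factors of 0.92 to 1.08. The embryo markers of library F went against its name. Of 12 embryo genes, CUC1 stood at 4.51 CPM (counts divided by the TMM-scaled library size and multiplied by 1e6) in F and at 5.48 to 16.8 CPM in the endosperm libraries, while none of the other 11 exceeded 1.85 CPM in any library, and CLV3 and DRN were at or near 0. PLT1 stood at 1.01 CPM in F, 3.85 times the H1/H1 endosperm mean but inside the 0.00 to 1.85 CPM of the endosperm libraries, and STM and WOX5 were highest in F, with 12 and 10 counts. The summed level of the embryo list was 7.29 CPM in F, against 10.1 to 18.1 CPM in endosperm. The 13 endosperm genes summed to 419 CPM in F, against 401 to 476 CPM in the endosperm libraries. Of the 10 tested, 6 lay above both H1/H1 endosperm libraries, where 31.3% of all genes tested did. Below both lay 3, against 30.8% of all genes tested. PHE1, with the highest ratio, reached 33.9 CPM in F, against 0.00 to 0.68 CPM in the endosperm libraries, and SUC5, an endosperm sucrose transporter gene, stood at 241 CPM, against 299 to 399 CPM. It is therefore called library F throughout. The series lists 3 H1/H1 endosperm samples while 2 columns carry that name, and the labels do not tell whether F is the third. Seed coat genes, which mark maternal tissue, took 0.43% of counts in F, 0.45% to 0.61% in h1/H1 endosperm and 0.36% to 0.42% in H1/H1 endosperm. The seed coat has the mother's genotype, which in h1/H1 seeds is h1 mutant. Its part in the members' levels was not tested. Library B stood apart among the endosperm libraries in its heat stress genes, whose summed level was 2877 CPM there, against 130 to 448 CPM in the other 4.

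The upstream sequences are shown to set the genes' levels beside the motifs known from photosynthesis promoters. The 250 bases before the annotated start of each member, read from the TAIR10.1 genome on the gene's own strand, were searched on both strands for the G-box CACGTG, the I-box core GATAAG and CCAATC, a motif with a CCAAT core. The motifs were searched independently, and no match printed here overlaps another. The G-box was found before 10 of 44 members (22.7%) and before 6.49% of all 27443 such windows. GATAAG was also found before 10 members (22.7%), against 12.3% of all windows. CCAATC was found before 11 members (25%), against 10.2% of all windows, and these were 3 of 4 LHCA genes, 7 of 15 LHCB genes, 1 of 9 PSII genes and none of the 12 PSI or 4 RBCS genes. In the sequences that follow, written 5′ to 3′ and ending at the base before the annotated start, the capitals mark these motifs or their reverse complements. LHCA4, LHCA1 and LHCB1.3 are highly expressed light-harvesting genes that carry CCAATC, RBCS1A is the member with the highest level and holds none of the motifs in its window, and RBCS2B is nearly silent here while its window holds a G-box and 3 GATAAG matches.
LHCA4, chr3:17495034-17495283, minus strand: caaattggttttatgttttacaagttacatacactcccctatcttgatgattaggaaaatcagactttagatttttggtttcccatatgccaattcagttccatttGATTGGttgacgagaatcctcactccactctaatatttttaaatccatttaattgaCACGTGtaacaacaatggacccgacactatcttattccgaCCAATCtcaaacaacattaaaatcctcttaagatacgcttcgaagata
LHCA1, chr3:20341177-20341426, minus strand: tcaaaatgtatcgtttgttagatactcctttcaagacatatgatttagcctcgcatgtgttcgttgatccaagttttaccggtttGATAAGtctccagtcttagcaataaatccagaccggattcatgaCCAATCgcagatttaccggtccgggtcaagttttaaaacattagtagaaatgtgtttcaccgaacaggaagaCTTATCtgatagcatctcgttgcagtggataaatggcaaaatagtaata
LHCB1.3, chr1:10477635-10477884, plus strand: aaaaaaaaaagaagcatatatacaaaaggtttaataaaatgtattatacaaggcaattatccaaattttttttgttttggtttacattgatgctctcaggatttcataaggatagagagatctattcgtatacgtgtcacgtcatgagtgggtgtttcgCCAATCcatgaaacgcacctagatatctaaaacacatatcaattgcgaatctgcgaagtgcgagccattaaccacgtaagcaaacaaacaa
RBCS1A, chr1:25049668-25049917, minus strand: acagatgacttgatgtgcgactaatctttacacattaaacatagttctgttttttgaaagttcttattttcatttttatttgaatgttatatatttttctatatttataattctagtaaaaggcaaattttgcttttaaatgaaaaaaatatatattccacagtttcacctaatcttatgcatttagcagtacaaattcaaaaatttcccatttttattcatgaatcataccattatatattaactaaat
RBCS2B, chr5:15382072-15382321, minus strand: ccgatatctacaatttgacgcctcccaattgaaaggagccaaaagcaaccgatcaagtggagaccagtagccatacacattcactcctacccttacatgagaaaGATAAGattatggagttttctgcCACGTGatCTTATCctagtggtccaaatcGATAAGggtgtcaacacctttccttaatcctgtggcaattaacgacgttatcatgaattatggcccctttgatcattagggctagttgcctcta

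In LHCA4 the G-box lies 88 bases before the start, with CCAATC matches on opposite strands at 144 and 48 bases. LHCA1 holds a single CCAATC at 121 bases between GATAAG matches at 165 and 49 bases, and LHCB1.3 a CCAATC at 91 bases. In RBCS2B the G-box is flanked by GATAAG matches at 146, 115 and 94 bases. Of these genes, RBCS2B, with the most matches, was the least abundant, and RBCS1A, with none, the most abundant. They were picked by level and motif, and a relation between matches and level was not tested. The counts of RBCS2B are also uncertain, since near-identical copies exist. A match is a match of letters only, and the absence of one refers to this window before the annotated start, not to the gene.

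The members were among the more abundant transcripts of the dissected endosperm libraries, and 4 of them were nearly silent. The authors reported a modest enrichment of seed coat transcripts in these samples, so levels in all reads include some maternal tissue. The 43 members that passed the filter of a mean of 10 counts had a median level of 260 CPM over the 5 endosperm libraries, against 16.9 CPM for all 18951 genes that passed it, and 34 of them lay in the highest 10% of these genes. Together the 44 genes took 1.22% to 1.37% of the counts of each h1/H1 endosperm library and 1.23% to 1.37% of each H1/H1 endosperm library. RBCS1A and LHCB1.3 alone supplied 20.0% of the members' endosperm counts. At the other end, LHCB1.4, LHCB7, RBCS1B and RBCS2B averaged under 5 CPM, while the remaining 40 members averaged at least 25 CPM. Levels per length, used wherever genes are compared, are CPM per kilobase of the longest annotated transcript.

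**Figure D1:**
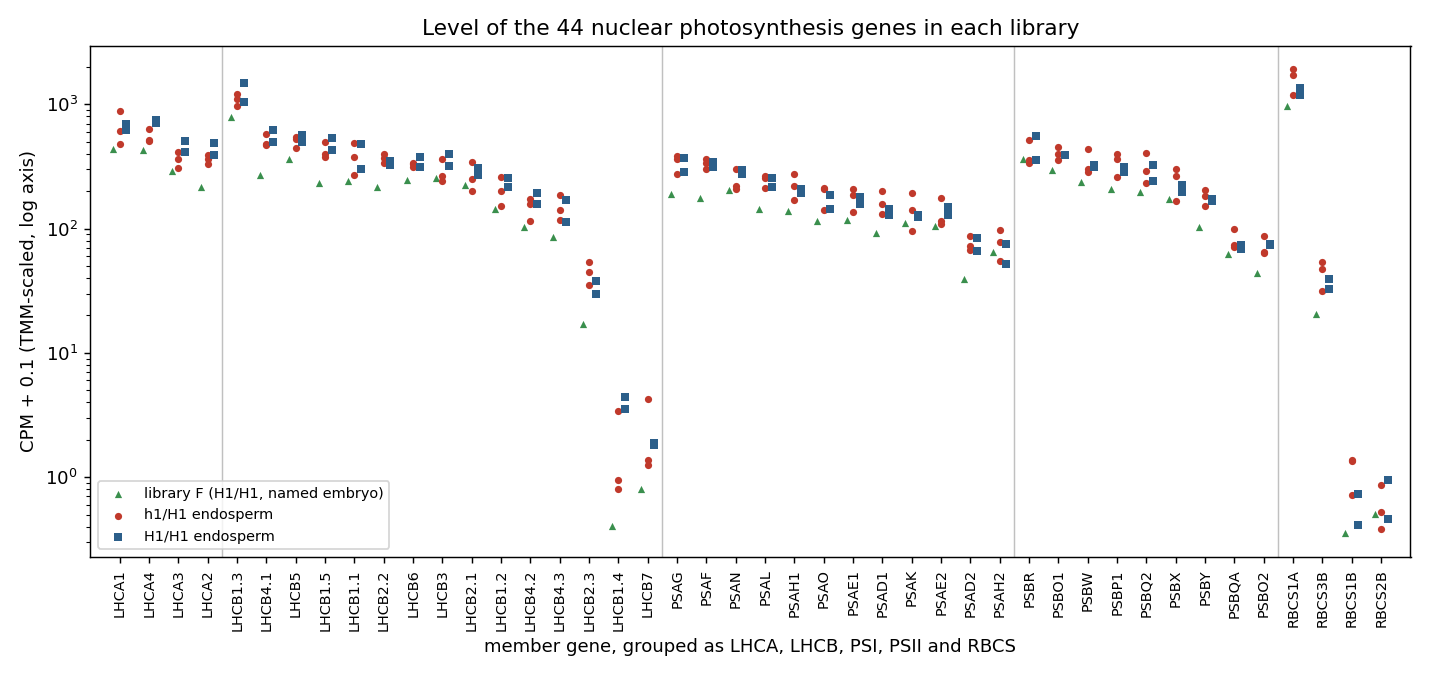
CPM of each of the 44 members (log axis, 0.1 added) in library F (triangles), the 3 h1/H1 endosperm libraries (circles) and the 2 H1/H1 endosperm libraries (squares), ordered by level within LHCA, LHCB, PSI, PSII and RBCS. The circles and squares lie mostly over one another, the triangles mostly below both, and LHCB1.4, LHCB7, RBCS1B and RBCS2B stand far under the rest.

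Maternal loss of H1 moved no member past the test in the endosperm. In the quasi-likelihood test of edgeR, adjusted over all 18951 genes by Benjamini-Hochberg, 0 of 43 members passed an adjusted p of 0.05 together with a 2-fold change, where 0% of all genes were called and the smallest adjusted p of any gene was 0.603. At an unadjusted p under 0.05, 0 members and 706 genes in all were found. DESeq2 called 49 genes (0.259%), none a member. The smallest unadjusted p among the members was 0.161. The median log2 fold change (h1/H1 over H1/H1) was 0.05 over the members and −0.02 over all genes tested. The 95% interval of the fold change lay wholly within 2-fold in either direction for 35 of the 43 members, and the standard errors ran from 0.25 to 0.88 on the log2 scale. The groups did not overlap for 3 members, which were lower in every h1/H1 library than in both H1/H1 libraries, and for 0 members in the other direction. Over all genes these patterns occurred in 8.18% and 7.84%.

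**Figure D2:**
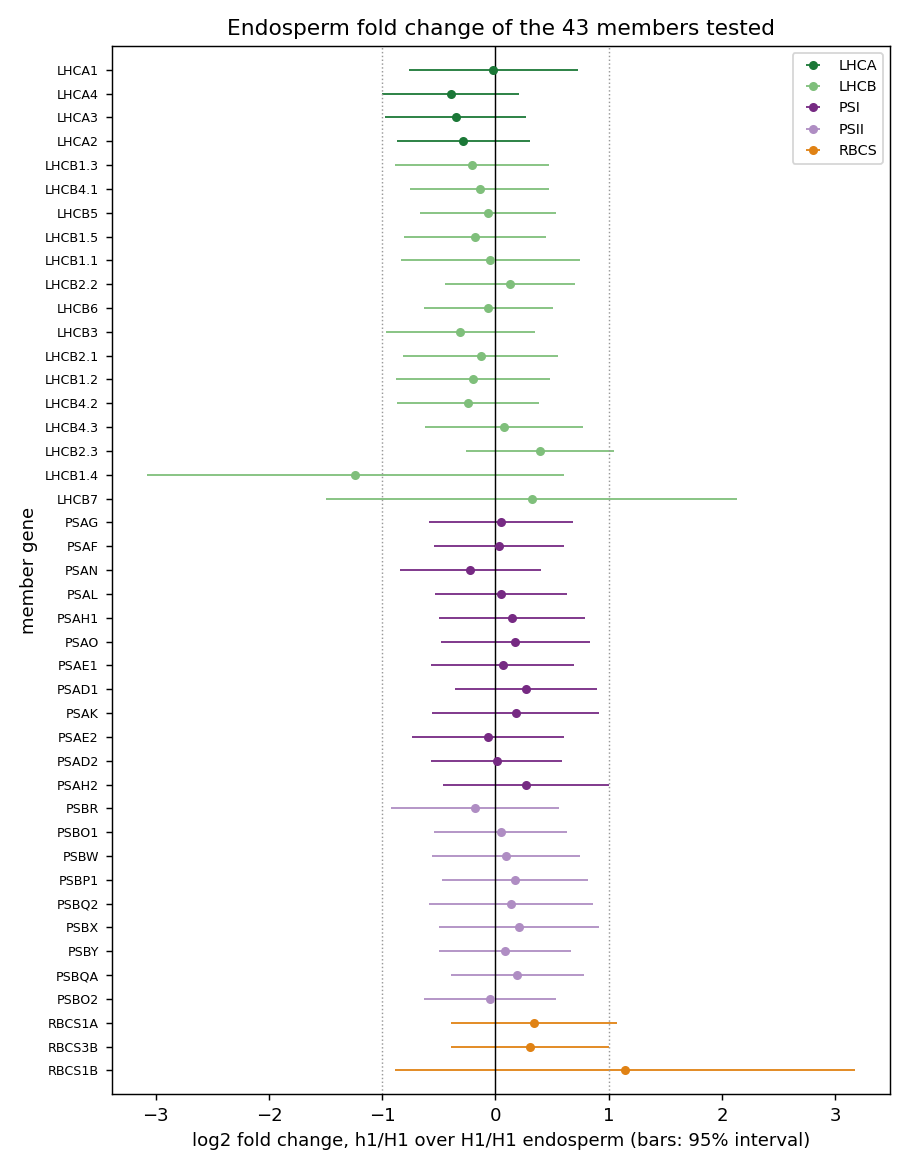
Log2 fold change of the 43 members tested, h1/H1 over H1/H1 endosperm, with 95% intervals from edgeR, coloured by class; dotted lines mark a 2-fold change. All 43 intervals span 0, the points of LHCA genes lie at or below 0 (LHCA1, at −0.02, turns to 0.012 without TMM) and those of RBCS genes above it, and the widest intervals belong to LHCB1.4, LHCB7 and RBCS1B.

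Within the antenna of photosystem I, LHCA1 (AT3G54890) had the highest level per length, 548 CPM per kb. Its level was 479, 879 and 604 CPM in h1/H1 endosperm, against 700 and 625 CPM in H1/H1 endosperm. The H1/H1 values lay inside the range of the h1/H1 values, and the log2 fold change was −0.02 (SE 0.32, adjusted p = 1.00, edgeR), with a sign that turned on leaving out library A, C or E (−0.29 to 0.16). LHCA2 (AT3G61470), the least abundant LHCA gene, had 333, 387 and 360 CPM in h1/H1 endosperm, against 390 and 485 CPM in H1/H1 endosperm. All 3 h1/H1 values were the lower ones, by a narrow margin between libraries D and A, and the log2 fold change was −0.28 (SE 0.26, adjusted p = 1.00, edgeR). LHCA4 (AT3G47470), named here because its groups also did not overlap, had 514, 636 and 509 CPM in h1/H1 endosperm, against 703 and 750 CPM in H1/H1 endosperm, a log2 fold change of −0.39 (SE 0.26, adjusted p = 1.00, edgeR). LHCA2 and LHCA4 encode neighbouring proteins of the same antenna belt. The 4 LHCA genes had log2 fold changes from −0.39 to −0.02.

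In the antenna of photosystem II, the LHCB1 genes encode the major trimeric light-harvesting protein. LHCB1.3 (AT1G29930) was the most abundant, at 945 CPM per kb, with 972, 1216 and 1099 CPM in h1/H1 endosperm against 1486 and 1040 CPM in H1/H1 endosperm. Library A was the highest and the groups overlapped through library B. Its log2 fold change was −0.20 (SE 0.30, adjusted p = 1.00, edgeR), and 0.08 without library A. LHCB1.1 (AT1G29920) had 374, 487 and 268 CPM in h1/H1 endosperm, against 475 and 300 CPM in H1/H1 endosperm. LHCB1.2 (AT1G29910) had 151, 261 and 202 CPM in h1/H1 endosperm, against 253 and 216 CPM in H1/H1 endosperm. Both overlapped between the groups, with log2 fold changes of −0.04 for LHCB1.1 (−0.34 to 0.33 with each library left out, the highest without A, and positive also without E) and −0.20 for LHCB1.2. The coding sequences of LHCB1.1, LHCB1.2 and LHCB1.3, which lie side by side on chromosome 1, are 95.6% to 96.4% identical, so reads may have been divided among them by the counting and their single values are uncertain.

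LHCB1.4 (AT2G34430) showed the lowest fold change of all members. Its h1/H1 endosperm libraries held 10, 11 and 55 counts (0.70, 0.85 and 3.32 CPM), against 65 and 83 counts (3.42 and 4.29 CPM) for H1/H1 endosperm. Libraries C and D were low, while library E came close to library A, so the groups were separated by little. The log2 fold change was −1.24 (SE 0.80, adjusted p = 1.00, edgeR), and it was −2.31 without library E. Its neighbour LHCB1.5 (AT2G34420), which lies on the opposite strand and starts close by, was a far more abundant gene at 429 CPM per kb, against 1.92 CPM per kb for LHCB1.4. LHCB1.5 had 400, 497 and 379 CPM in h1/H1 endosperm, against 425 and 540 CPM in H1/H1 endosperm, a log2 difference of −0.18. LHCB7 (AT1G76570), a distant member of the family, was the least abundant LHCB gene with counts of 59, 15 and 21 for h1/H1 endosperm, against 34 and 33 for H1/H1 endosperm. Library C alone was high, and the log2 fold change was 0.32 (SE 0.79, adjusted p = 1.00, edgeR), or −0.52 without library C. Over the 15 LHCB genes, 11 log2 fold changes were negative and 4 positive, with a median of −0.13.

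Among the nuclear subunits of photosystem I, PSAG (AT1G55670), which helps to anchor the antenna, had the highest level per length at 427 CPM per kb. It had 380, 360 and 272 CPM in h1/H1 endosperm, against 286 and 366 CPM in H1/H1 endosperm, fully overlapping, and the log2 fold change was 0.05 (SE 0.28, adjusted p = 1.00, edgeR) whose sign turned without A, C or D (−0.12 to 0.24). PSAH2 (AT1G52230), which encodes a copy of the H subunit where LHCII docks, had the lowest CPM of the class, although PSAD2 was lower per length (78.7 CPM per kb, against 102 CPM per kb for PSAH2). Its level was 97.6, 78.0 and 54.4 CPM in h1/H1 endosperm, against 75.1 and 52.0 CPM in H1/H1 endosperm. It overlapped as well, and its log2 fold change was 0.27 (SE 0.32, adjusted p = 1.00, edgeR), or 0.03 without library B, 0.06 without C, 0.47 without E and 0.56 without A. The 12 PSI genes had a median log2 fold change of 0.06, with 10 positive and 2 negative values from −0.22 to 0.27.

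For photosystem II, PSBR (AT1G79040), a small protein near the oxygen-evolving complex, was the most abundant member per length at 542 CPM per kb. It had 338, 519 and 354 CPM in h1/H1 endosperm, against 358 and 556 CPM in H1/H1 endosperm. In each group 1 library was high (D and B) and the others low, and the log2 fold change was −0.18 (SE 0.32, adjusted p = 1.00, edgeR), or 0.18 without library B. PSBO2 (AT3G50820), a copy of the manganese-stabilising protein, was the least abundant with 63.9, 87.3 and 65.3 CPM in h1/H1 endosperm, against 73.6 and 75.7 CPM in H1/H1 endosperm, a log2 fold change of −0.05 (−0.21 to 0.03 with each library left out, positive without C or E). Its paralog PSBO1 stood at 263 CPM per kb, against 55.1 CPM per kb for PSBO2. The 9 PSII genes had a median log2 fold change of 0.09, with 7 positive and 2 negative values.

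The RNA of the Rubisco small subunit came almost wholly from RBCS1A, at 1163 CPM per kb the member with the highest level of all 44. RBCS1A (AT1G67090) had 1918, 1724 and 1186 CPM in h1/H1 endosperm, against 1364 and 1181 CPM in H1/H1 endosperm. Libraries C and D were above both H1/H1 libraries while library E lay between them, and the log2 fold change was 0.34 (SE 0.32, adjusted p = 1.00, edgeR). RBCS3B (AT5G38410) had 53.8, 47.5 and 31.3 CPM in h1/H1 endosperm, against 39.2 and 32.3 CPM in H1/H1 endosperm, with libraries C and D again above and E below, and a log2 fold change of 0.31. RBCS1B (AT5G38430) had counts of 18, 8 and 21 in h1/H1 endosperm, against 12 and 6 in H1/H1 endosperm, and the highest log2 fold change of the members at 1.15 (SE 0.88, adjusted p = 1.00, edgeR). These few counts overlapped between the groups, and the value was 0.73 without library B, 1.74 without library A and 0.47 by limma. The counts of RBCS2B (AT5G38420) were 8 for library F and 4, 10 and 7 for h1/H1 endosperm, against 16 and 7 in H1/H1 endosperm, and with a mean of 8.67 counts it was the only member under the filter. RBCS1B, RBCS2B and RBCS3B lie in a row on chromosome 5 with coding sequences 94.1% to 97.3% identical, so their counts are uncertain in the same way.

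Light-harvesting genes and photosystem subunits leaned to opposite sides, within the spread between libraries. Of the 19 LHCA and LHCB genes, 15 had a negative log2 fold change (median −0.14), and of the 21 PSI and PSII genes, 17 had a positive one (median 0.08), where 51.9% of all genes tested were negative and 48.1% positive. With 1 library left out at a time, 11 to 16 of the 19 were negative (fewest without B) and 11 to 19 of the 21 positive (fewest without D). The ratio of the summed CPM of the light-harvesting genes to that of the subunits was 1.21, 1.46 and 1.61 in h1/H1 endosperm, against 1.74 and 1.56 in H1/H1 endosperm. Library C was the lowest and library E lay between A and B, so the groups overlapped. Among the 5 endosperm libraries, library C was the highest for 11 of the 21 subunit genes and 2 of the 19 light-harvesting genes, and library B for 1 and 9 of them. Library B also had the high heat stress level given above, whose part in this lean was not tested.

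No other gene of the pathway was called between the crosses. None of the 20 tested chlorophyll synthesis genes (of 21), 15 Calvin cycle genes, 13 genes of electron transport and ATP synthase, 8 tested regulators of greening (of 11) or 7 plastid-encoded genes was called by edgeR, and none had an unadjusted p under 0.05. Their median log2 fold changes were −0.06, −0.08, −0.13, 0.11 and −0.47 in that order of lists. The extremes were GUN4, which activates magnesium chelatase, at 0.36 and CAO, which makes chlorophyll b, at −0.35; TKL1, a transketolase, at 0.23 and GAPA1, a subunit of chloroplast glyceraldehyde-3-phosphate dehydrogenase, at −0.49; and FD2, the main leaf ferredoxin, at 0.33 and FNR1, a ferredoxin-NADP reductase, at −0.62. FNR1 had 119, 204 and 162 CPM in h1/H1 endosperm, against 253 and 243 CPM in H1/H1 endosperm, without overlap (SE 0.29, adjusted p = 1.00, edgeR). It was the pathway gene nearest to a call by unadjusted p, at 0.062. Every h1/H1 library was lower for 3 Calvin cycle genes, 2 of electron transport and ATP synthase and 1 of chlorophyll synthesis. Every one was higher for 1 chlorophyll synthesis gene and 1 regulator. Over all genes tested these patterns occurred in 8.18% and 7.84%.

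The transcription factors GLK1 and GLK2 stood at low levels. GLK1 had 0.21, 2.01 and 3.02 CPM in h1/H1 endosperm, against 0.63 and 1.4 CPM in H1/H1 endosperm, and GLK2 had 6.01, 7.65 and 6.64 CPM in h1/H1 endosperm, against 4.21 and 5.95 CPM in H1/H1 endosperm. All 3 GLK2 values of h1/H1 endosperm were the higher ones, a pattern of 7.84% of all genes tested. The log2 fold change of GLK2 was 0.41 (SE 0.41, adjusted p = 1.00, edgeR). GLK1 had the highest of its list at 0.78 (SE 1.05). GUN1, a chloroplast signalling protein, was the lowest of the list at −0.13. The plastid-encoded genes took 2.80%, 6.01% and 4.95% of counts in h1/H1 endosperm, against 5.11% and 6.96% in H1/H1 endosperm, with library C low and library B high. Their log2 fold changes ran from −0.97 for psbA to −0.28 for rbcL, and in library C they stood low although the nuclear members' share of counts there, 1.36%, was among the higher ones.

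In library F nearly all members were lower than in H1/H1 endosperm, by a median factor of 0.648. With 1 library there is no test, and the difference has no replicate check. As the markers of F go against the name embryo, its tissue is uncertain and this is not a comparison of embryo with endosperm. Of the 43 members, 41 lay below both H1/H1 endosperm libraries, where 30.8% of all genes did, and 0 lay above both, where 31.3% of all genes did. Below all 5 endosperm libraries lay 37 members, against 16.5% of all genes. A level under 0.5 times the H1/H1 endosperm mean was reached by 6 members, against 7.41% of all genes, and a level over 2 times the mean by 0, against 6.78%. The ratio to the H1/H1 endosperm mean had a median of 0.973 over all genes tested. The members' share of counts was 0.87% in library F, against 1.37% and 1.23% in the H1/H1 endosperm libraries and 1.36%, 1.37% and 1.22% in the h1/H1 ones; the 95% Wilson intervals were within 0.01 percentage points of these values and cover counting error only. In bulk RNA, fewer cells of a kind and less RNA per cell cannot be told apart.

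**Figure D3:**
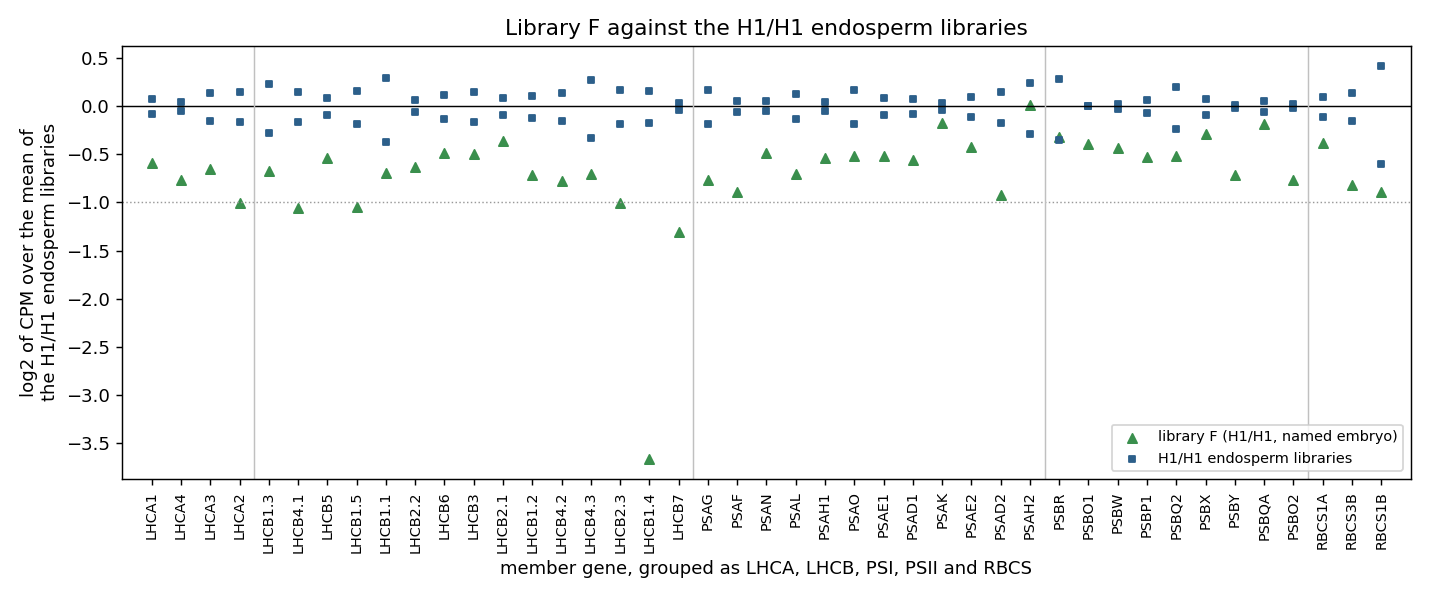
Log2 of the CPM in library F (triangles) and in the 2 H1/H1 endosperm libraries (squares) over the mean of these 2, for the 43 members tested; the dotted line marks 0.5 times the mean. All triangles but those of PSAH2 and PSBR lie below both squares, and LHCB1.4 lies lowest.

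All 19 light-harvesting genes lay below both H1/H1 endosperm libraries, with a median ratio of 0.612, and all 6 members under 0.5 times the endosperm mean were among them: LHCA2, LHCB1.4, LHCB1.5, LHCB2.3, LHCB4.1 and LHCB7. The limit cuts through close values. LHCA2 and LHCB2.3 (both 0.498), LHCB1.5 (0.483) and LHCB4.1 (0.480) lay just under it. The subunit genes PSAD2 (0.527) and PSAF (0.538) lay just over it. LHCB7 rested on 14 counts in library F. LHCB4.1, a minor antenna protein that links the trimers to the photosystem core, had 268 CPM in library F, against 500 and 618 CPM in H1/H1 endosperm. LHCB1.5 had 233 CPM in library F, against 425 and 540 CPM. LHCB1.3 had 792 CPM in library F, against 1486 and 1040 CPM, and LHCA1 441 CPM, against 700 and 625 CPM. Each of these F values was below both endosperm values. LHCB1.4 had 6 counts in library F, against 65 and 83 in H1/H1 endosperm.

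The photosystem subunits were closer to the endosperm, with a median ratio of 0.70 over the 21 PSI and PSII genes, and supplied both exceptions. PSAH2 had 64.3 CPM in library F, against 75.1 and 52.0 CPM in H1/H1 endosperm, and PSBR had 366 CPM, against 358 and 556 CPM. Both F values lay between the endosperm values. PSAG had 191 CPM in library F, against 286 and 366 CPM, and PSBO2 43.7 CPM, against 73.6 and 75.7 CPM, both below. RBCS1A had 975 CPM in library F, against 1364 and 1181 CPM in H1/H1 endosperm, and RBCS3B 20.3 CPM, against 39.2 and 32.3 CPM. Whether the classes differ in their ratios was not tested, as they come from a single library.

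Some other parts of the pathway were also mostly lower in library F, and some were not. Below both H1/H1 endosperm libraries lay 14 of 15 Calvin cycle genes, 11 of 13 genes of electron transport and ATP synthase and 15 of 20 chlorophyll synthesis genes. The counts were 3 of 7 for plastid-encoded genes and 1 of 8 for regulators of greening. Over all genes tested, 30.8% lay below both. The plastid-encoded genes took 5.16% of counts in library F, against 5.11% and 6.96% in H1/H1 endosperm. GLK2 went the other way, with 11.8 CPM in library F, against 4.21 and 5.95 CPM. Seed maturation genes took 0.56% of counts in library F, against 0.29% and 0.69% in H1/H1 endosperm, and the seed coat share of 0.43% stood beside 0.36% and 0.42%. The part of these lists in the members' lower level was not tested.

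Reads that carry a Ler base come from the paternal genome and so from the embryo or endosperm rather than from the maternal seed coat. The members took 1.09% of the Ler reads in library F (Wilson 95% interval 1.05% to 1.13%), 1.4%, 1.81% and 1.48% in h1/H1 endosperm, and 1.55% with 1.39% in the H1/H1 endosperm libraries. Library D was the highest and library F the lowest, the same place it had in all counts. Seed coat genes took 0.0014% to 0.0078% of the Ler reads in any library, with 3 to 14 reads each, and endosperm genes 0.19% to 0.23%. The members' share of Ler reads was at or above their share of all counts in every library, while that of the seed coat genes was close to 0. Ler reads exist only where the parents differ in sequence, and 19 members had 10 or fewer over the endosperm libraries. The shares thus cover unlike sets of loci, and their sizes do not tell the tissue the members' RNA came from.

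**Figure D4:**
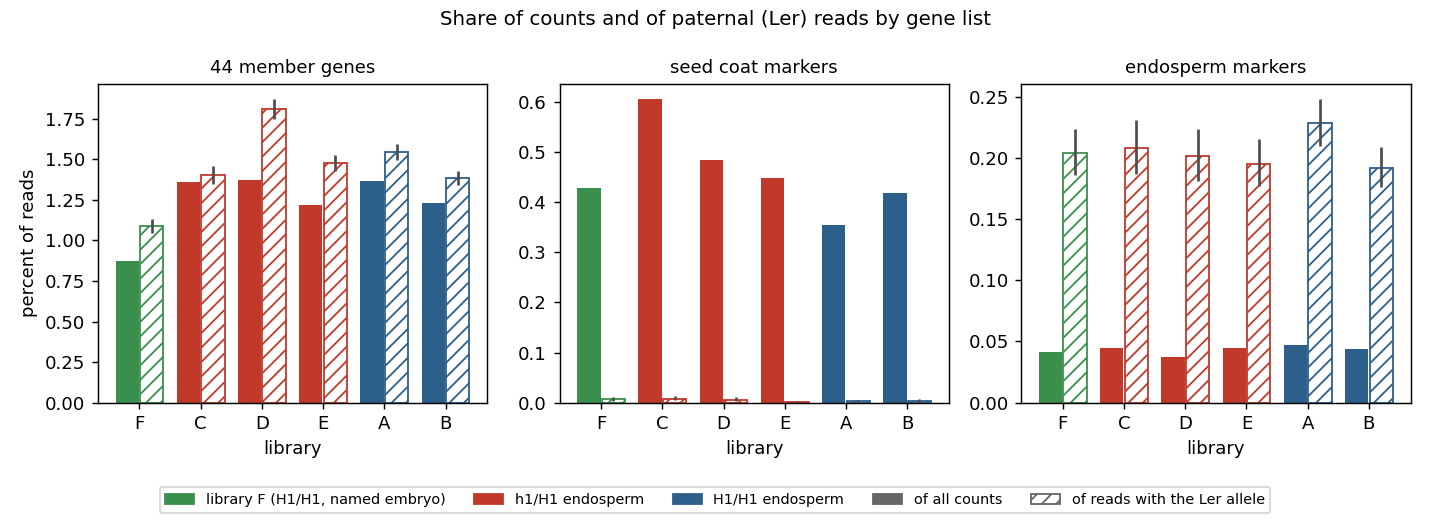
Percent of all counts (filled bars) and of Ler reads (hatched bars, with Wilson 95% intervals) taken by the 44 members, 11 seed coat genes and 13 endosperm genes in library F, h1/H1 endosperm (C, D, E) and H1/H1 endosperm (A, B). The members hold a similar or higher share of the Ler reads than of all counts, the seed coat genes nearly none, and library F has the lowest member share on both scales. The scales cover unlike sets of loci.

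Of the 44 members, 23 had a mean of at least 10 Ler reads over the endosperm libraries, and 19 had 10 or fewer in all 5 together. RBCS1A and LHCA1 had 0 Ler reads in every library and also 0 Col-0 reads in library F. Their zeros therefore say nothing of the paternal alleles. No member was called between the crosses in this smaller set either. By edgeR over 4417 loci, 0 of 23 members were called, where 0% of all loci were, and 0 members and 148 loci had an unadjusted p under 0.05. DESeq2 called 1 locus, not a member. The median log2 fold change was 0.13 over the members and −0.0035 over all loci, and −0.05 over the members without library D. The 95% interval lay within 2-fold for 9 of the 23. Every h1/H1 library was above both H1/H1 libraries for 2 members, LHCA3 and LHCB2.2, and below both for 1, LHCB6, a minor antenna protein. Over all loci these patterns occurred in 8.24% and 9.21%.

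In paternal reads 5 of the 12 light-harvesting genes tested had a negative log2 fold change (median 0.05), and all 3 tested LHCA genes a positive one. The direction depended on single libraries, with 8 of 12 negative without D (median −0.15), a median of −0.07 without B, and 3 of 12 negative without C (median 0.19). Whether paternal reads differ from all reads in this lean was not tested. LHCA4 had 163, 230 and 245 Ler reads in h1/H1 endosperm, against 276 and 280 in H1/H1 endosperm, of totals of 165956, 171800 and 210780 reads in h1/H1 endosperm, against 235602 and 275433 in H1/H1 endosperm. Scaled to these totals its log2 fold change was 0.09 (SE 0.28, adjusted p = 1.00, edgeR). LHCB1.3 had 16, 61 and 94 Ler reads in h1/H1 endosperm, against 109 and 92 in H1/H1 endosperm. LHCB3, a subunit of the trimers, had 6, 25 and 33 in h1/H1 endosperm, against 40 and 39 in H1/H1 endosperm. They are named here because library C stood far below the others, at 96.6 CPM of Ler reads against 342 to 450 in the other 4 endosperm libraries for LHCB1.3, and at 36.2 against 145 to 165 for LHCB3. Library C was also the lowest endosperm library in all reads, by less, with 972 CPM against 1040 to 1486 for LHCB1.3 and 242 CPM against 264 to 400 for LHCB3. The ratio of Ler reads of light-harvesting genes to those of the subunits was 0.92 in library C and 1.16 to 1.27 in the other 5 libraries.

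In library F both parents' reads were used, and the members leaned to the mother less than the pooled reads of all loci. The Col-0 reads of the endosperm libraries were left out, so no endosperm library stands beside these shares. An embryo inherits equally from both parents, while the endosperm inherits more copies from the mother. Of 7656 assigned reads in the members, 68.5% carried the Col-0 base (Wilson 95% interval 67.4% to 69.5%), against 82.1% over all loci, 99.7% in the seed coat genes and 72.1% in the endosperm genes. The members with at least 50 assigned reads, 20 in all, ranged from 59.3% for PSBX to 86.5% for PSBQ2, with a median of 70.0%. LHCA4 had 375 Col-0 and 223 Ler reads (62.7%), LHCB1.1 500 and 266 (65.3%), PSAG 329 and 206 (61.5%) and LHCB1.3 235 and 75 (75.8%). The shares differ between genes also through the positions that separate the parents, and genes of 1 library are not replicates.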

How the data were processed

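RNA of dissected endosperm and embryo was amplified and sequenced by the authors. Of H1/H1 embryo 2 samples are listed, of each other group 3. The authors trimmed reads with fastp, assigned them to TAIR10 transcripts with Salmon 1.9.0 and deposited a table of whole-number counts per gene. It is labelled normalized, but as it holds whole numbers its values were treated here as unscaled counts. The authors also deposited counts of reads assigned to Col-0 or Ler by bases that differ between the TAIR8 Col-0 and Ler sequences. The step from transcripts to genes is not given in the sources used here. Of the count columns, 5 were not used, since their names give no group. Of the allele columns, the 5 with Col-0 reads of the endosperm libraries were left out, although their names give cross and tissue. Together with the Ler columns, which were kept, they would have outnumbered the samples of their group.

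Counts were scaled by TMM and tested with edgeR 4.0.16 (R 4.3.3), quasi-likelihood, on genes averaging 10 counts or more over the 6 libraries, library F being fitted as a group of its own. A call needed an adjusted p under 0.05 with at least a 2-fold change. SE was taken as the log2 change over the square root of the F statistic. DESeq2 1.42.0, limma 3.58.1 and the other alternatives are in the closing section. The script was tested on simulated data. H1/H1 endosperm is 1 sample short of the 3 listed. The columns carry no replicate number.

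The members and lists were chosen with earlier results of these data known. Members named with every library are, per class, the highest per length and the lowest in level, the extremes of fold change, those under the filter and the near-identical copies; members whose groups did not overlap, and others said to stand out, were added after their values were seen. Symbols were tied to locus identifiers by hand, and all 44 members were found in the RefSeq annotation of TAIR10.1, from which lengths, positions and upstream sequences were taken. Intervals of shares are Wilson intervals from scipy 1.17.1.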

Additional observations from a re-analysis of the deposited data

How the results depend on the processing

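The endosperm result, 0 of the members called, held under DESeq2, limma on log2(CPM + 1), no TMM, upper-quartile scaling, no filter, a filter at 50 mean counts, a fit of endosperm alone, the near-identical genes summed and each library left out. The members' median log2 fold change stayed between 0.03 and 0.09 under the first 8 of these and between −0.07 and 0.13 with libraries left out. In paternal reads it ran from −0.051 (without library D) to 0.21 (without library C). Over all genes edgeR called 0, but 109 without library A and 9 without library B, none a member; in Ler reads it called 14 loci without A and 3 without B, again none a member. For the library F comparison, the members under 0.5 times the endosperm mean numbered 4 to 6 under every alternative; the one against all 5 endosperm libraries, added after the data were seen, gave 5.

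Signs near 0 turned for several members. The log2 fold change of LHCA1 was 0.012 without TMM and 0.010 by upper quartile. With libraries left out it ran from −0.29 to 0.16 for LHCA1, −0.34 to 0.33 for LHCB1.1, −0.44 to 0.076 for LHCB1.3, −0.52 to 0.62 for LHCB7, −0.12 to 0.24 for PSAG, −0.46 to 0.18 for PSBR and −0.21 to 0.032 for PSBO2. Others kept their sign but not their size, from −2.31 to −0.88 for LHCB1.4, −0.43 to −0.12 for LHCA2, −0.41 to −0.02 for LHCB1.2, 0.19 to 0.52 for RBCS1A and 0.14 to 0.50 for RBCS3B. The cause was not tested. No paired analysis was possible because the columns of the count table carry no replicate number.

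With 3 against 2 libraries and standard errors of at least 0.25, small changes could not be called. The LHCB1.4, LHCB7, RBCS1B and RBCS2B values rest on fewer than 100 counts per library. Library F is a single library whose markers go against its name, and the 21 members with under 10 mean Ler reads say nothing of the paternal genome.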
